A study of Mus musculus with 12 samples.

Results

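The genes of the colony-stimulating factors and their receptors were followed in mouse lung RNA: the ligand genes Csf1, Csf2, Csf3 and Il34 and the receptor genes Csf1r, Csf2ra, Csf2rb, Csf2rb2 and Csf3r. They were chosen by gene symbol, and these 9 genes of the 38349 in the deposited table each had 1 row. All 9 passed the filter on low counts that left 22915 genes for testing. The study comprised 12 bulk RNA-seq libraries of whole lung, 3 each from groups named Control, ALI, MSC and tpMSC, and all were labelled wild type. ALI stands for the acute lung injury model, which the title of the series attributes to hypoxia and LPS (lipopolysaccharide, a bacterial cell wall component that provokes inflammation). The MSC and tpMSC libraries came from the model after treatment with MSCs or tpMSCs. The labels and notes used here do not state what distinguishes tpMSCs, nor the cell source, dose, timing, mouse strain or age. The labels do not say that the 3 libraries of a group came from separate animals, so the spread that p-values measure may be a technical one.

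Colony-stimulating factors are secreted proteins that keep myeloid cells alive and direct their differentiation. CSF1 and IL-34 both bind CSF1R, a receptor tyrosine kinase of monocytes and macrophages. CSF2, also called GM-CSF, binds an alpha chain (Csf2ra) that signals with a common beta chain (Csf2rb), and in the lung it is needed for the development of alveolar macrophages and their clearance of surfactant. CSF3, also called G-CSF, binds CSF3R and drives the production and release of neutrophils.

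Total counts ranged from 53083002 to 70209229 per library. Lung-defining genes were abundant in all 12 libraries: Sftpc, a surfactant protein of alveolar type 2 cells, had 3411.61 to 11439.34 FPKM, and the endothelial gene Pecam1 had 78.03 to 121.31 FPKM. FPKM is a read count scaled by gene length and library size. Replicates differed most in the MSC group, where a chi-square comparison of the counts of library pairs gave 84.2 to 154 per degree of freedom, against 23 to 101 in the other groups. Pairs with tpMSC replicate 3 gave 101 and 96.4, within the MSC range, whereas tpMSC replicates 1 and 2 gave 28.8. Results that rest on single MSC libraries are marked as such where they are given.

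All 9 genes differed between ALI and Control, 8 being higher and Csf2ra lower in ALI, where a gene was called changed at an adjusted p under 0.05 in edgeR's quasi-likelihood test with Benjamini-Hochberg adjustment over all 22915 genes. Of all genes tested, 39.8% were called in that comparison, 20.2% as higher and 19.6% as lower. The FPKM values of the 2 groups did not overlap for any of the 9 genes, and the same held for 55.6% of all genes. In MSC against ALI, Csf1, Csf2, Csf3 and Csf3r were lower and Csf2ra was higher, where 10.2% of all genes were called, 5.03% as higher and 5.21% as lower. In tpMSC against ALI the same 5 genes were called in the same directions and Csf1r was also lower, where 23.1% of all genes were called, 11.6% as higher and 11.5% as lower. The 3 comparisons share the ALI libraries, so their calls are not independent. No member was called between tpMSC and MSC, where 0.0305% of all genes were called, 0.0175% as higher and 0.0131% as lower. Because whole lung was sequenced, fewer cells of a type and less RNA per cell cannot be told apart in any of these differences.

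**Figure D1:**
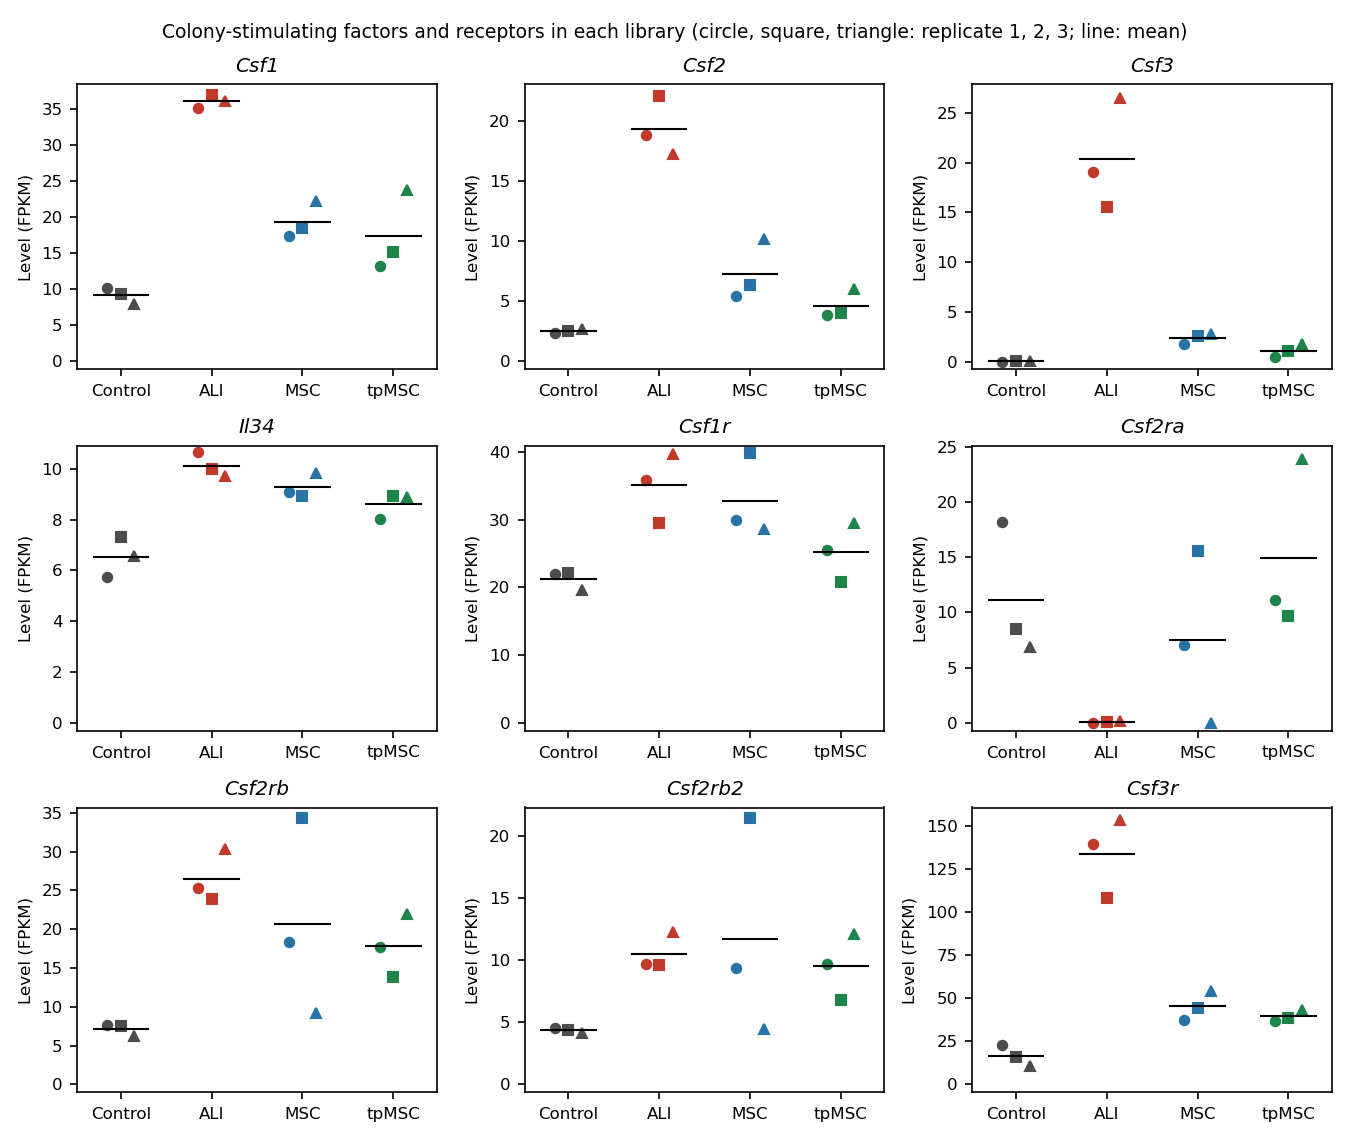
FPKM (vertical axes, linear) of the 9 genes in each of the 12 libraries, by group, with the symbol showing the replicate number and the line the group mean. In Csf1, Csf2, Csf3 and Csf3r the 3 ALI libraries lie above all others, whereas Csf2ra is at or near 0 in the ALI libraries and in MSC replicate 3.

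Csf3, the G-CSF gene (GRCm38 chr11:98701263-98703629, plus strand), was barely detected in Control. It was at 0.00, 0.06 and 0.02 FPKM in Control replicates 1 to 3 and at 19.06, 15.53 and 26.52 FPKM in ALI. The MSC libraries had 1.74, 2.59 and 2.79 FPKM and the tpMSC libraries 0.47, 1.08 and 1.74 FPKM. Control was thus lowest without overlap, ALI highest without overlap, and the treated groups in between met at 1.74 FPKM. The Control values rest on 0, 7 and 3 counts, against 1281 to 2618 counts in ALI. The fitted log2 fold change of ALI against Control was 9.31 ± 0.67 (SE, adjusted p = 2.48e-06), and it ran from 4.35 on the log2(FPKM + 1) scale to 10.38 without Control replicate 2 over 20 alternatives. The SE of each fitted log2 fold change, here and below, was back-calculated from the test statistic and not estimated directly. Csf3 fell by 3.14 ± 0.45 on the log2 scale in MSC against ALI (adjusted p = 0.00187) and fell by 4.22 ± 0.48 in tpMSC against ALI (adjusted p = 0.00016). It was still higher than in Control in MSC (log2 fold change 6.17 ± 0.66, adjusted p = 0.000222) and in tpMSC (5.09 ± 0.67, adjusted p = 0.0011), against the same few Control counts. On the log2(FPKM + 1) scale those 2 differences were 1.70 and 0.98.

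Csf2, the GM-CSF gene (GRCm38 chr11:54247271-54249667, minus strand), was at 2.40, 2.57 and 2.67 FPKM in Control and at 18.76, 22.01 and 17.19 FPKM in ALI. It was at 5.42, 6.35 and 10.13 FPKM in MSC and at 3.83, 4.04 and 5.98 FPKM in tpMSC. Both treated groups lay between Control and ALI without touching either, and they overlapped each other. Csf2 rose by 2.98 ± 0.26 on the log2 scale in ALI against Control (adjusted p = 7.22e-06), a fold of 7.88. It fell by 1.45 ± 0.24 in MSC against ALI (adjusted p = 0.00367) and fell by 2.09 ± 0.25 in tpMSC against ALI (adjusted p = 0.000202). It was higher than in Control by 1.53 ± 0.25 in MSC (adjusted p = 0.00182) and by 0.89 ± 0.24 in tpMSC (adjusted p = 0.0298). The tpMSC call was lost without Control replicate 1, 2 or 3 or tpMSC replicate 3, with adjusted p from 0.0678 to 0.114. The gene overlaps Gm12223 on the other strand, which had at most 14 counts in a library.

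Csf1, the M-CSF gene (GRCm38 chr3:107741048-107760469, minus strand), was the ligand gene with the most transcript per length in every library. It was at 10.20, 9.33 and 7.98 FPKM in Control and at 35.15, 36.93 and 36.08 FPKM in ALI. The MSC libraries had 17.40, 18.43 and 22.30 FPKM and the tpMSC libraries 13.17, 15.18 and 23.75 FPKM. The 3 ALI values lay within a coefficient of variation of 2.47%, the narrowest spread of Csf1 in any group, and stood above every treated library. Csf1 rose by 2.04 ± 0.20 on the log2 scale in ALI against Control (adjusted p = 1.42e-05). It fell by 0.94 ± 0.19 in MSC against ALI (adjusted p = 0.0101), a call that was just missed without MSC replicate 1 (adjusted p = 0.0503), and fell by 1.08 ± 0.19 in tpMSC against ALI (adjusted p = 0.00213). Both treated groups were still above Control without overlap, by 1.09 ± 0.19 in MSC (adjusted p = 0.00292) and 0.96 ± 0.19 in tpMSC (adjusted p = 0.00724).

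Il34, the gene of the other CSF1R ligand (GRCm38 chr8:110741829-110805924, minus strand), changed by a smaller amount. It was at 5.72, 7.30 and 6.56 FPKM in Control and at 10.65, 9.99 and 9.70 FPKM in ALI. The MSC libraries had 9.10, 8.92 and 9.82 FPKM and the tpMSC libraries 8.04, 8.93 and 8.90 FPKM. Control was lowest without overlap, and the MSC range overlapped those of ALI and tpMSC. Il34 rose by 0.69 ± 0.10 on the log2 scale in ALI against Control (adjusted p = 0.000264). Its difference from ALI was -0.17 ± 0.10 in MSC (adjusted p = 0.335) and -0.25 ± 0.10 in tpMSC (adjusted p = 0.0972), and neither was called. The tpMSC difference was called under limma voom with library weights (adjusted p = 0.0249). Against Control it was higher by 0.52 ± 0.10 in MSC (adjusted p = 0.00534) and by 0.44 ± 0.10 in tpMSC (adjusted p = 0.0151). The latter call was lost without Control replicate 1 (adjusted p = 0.0649). The gene overlaps 2 predicted genes on the other strand, Gm15894 and Gm15895, which had at most 12 and 72 counts in a library.

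The balance of the 2 CSF1R ligands was read within each library as the log2 ratio of Csf1 to Il34 FPKM. It averaged 0.49 ± 0.30 (SD, n = 3) in Control, 1.83 ± 0.10 in ALI, 1.05 ± 0.12 in MSC and 0.96 ± 0.39 in tpMSC. Csf1 was thus 1.40-fold above Il34 in Control and 3.56-fold above it in ALI. The groups differed in a exact permutation test over all 369600 arrangements of the 12 libraries (n = 3 per group, p = 0.00253). The ALI libraries had the highest ratios, from 1.72 to 1.89, and no other library exceeded 1.42. Single pairs of groups of 3 cannot give a p below 0.1 in such a test and were not tested.

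Csf3r, which encodes the G-CSF receptor of neutrophils (GRCm38 chr4:126024550-126044440, plus strand), had the highest level of the 9 genes in ALI. It was at 22.77, 15.78 and 10.63 FPKM in Control and at 139.81, 108.30 and 153.59 FPKM in ALI. The MSC libraries had 37.33, 44.29 and 54.40 FPKM and the tpMSC libraries 36.94, 38.58 and 43.48 FPKM. The treated groups overlapped each other, and both lay above Control and below ALI with no shared values. Csf3r rose by 3.09 ± 0.25 on the log2 scale in ALI against Control (adjusted p = 5.46e-06). It fell by 1.61 ± 0.24 in MSC against ALI (adjusted p = 0.00213) and fell by 1.78 ± 0.24 in tpMSC against ALI (adjusted p = 0.000453). It was higher than in Control by 1.48 ± 0.24 in MSC (adjusted p = 0.0019) and by 1.31 ± 0.24 in tpMSC (adjusted p = 0.00484).

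Neutrophil markers moved with Csf3 and Csf3r. Of 18 neutrophil genes, 18 rose in ALI against Control, with a median log2 fold change of 4.33 against -0.022 over all genes tested. The shares of all genes called, given above for each comparison, apply to this and the later cell type lists. In MSC against ALI, 14 of the 18 fell and none rose, and in tpMSC against ALI 17 fell and none rose. Their summed FPKM was 187.4 to 275.2 in Control, 4211 to 4780 in ALI, 631.8 to 1059 in MSC and 619.7 to 696.3 in tpMSC. Trem1, a receptor that amplifies inflammation in myeloid cells, had a mean of 1.51 FPKM in Control, 38.1 in ALI, 5.84 in MSC and 4.60 in tpMSC. Stfa2l1, a stefin family gene, went from a mean of 1.02 FPKM in Control to 120.0 in ALI, with 21 in MSC and 12.8 in tpMSC. Il1r2, the decoy receptor of interleukin 1, went from 0.443 to 30.2 FPKM, with 6.93 in MSC and 5.11 in tpMSC. The part of neutrophil number in the change of Csf3r was not tested.

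Csf1r, the receptor of CSF1 and IL-34 (GRCm38 chr18:61100598-61132149, plus strand), was at 21.98, 22.06 and 19.64 FPKM in Control and at 35.86, 29.54 and 39.71 FPKM in ALI. It was at 29.97, 39.84 and 28.55 FPKM in MSC and at 25.50, 20.84 and 29.44 FPKM in tpMSC. The MSC libraries covered the ALI range, while the tpMSC libraries lay below ALI and overlapped both Control and MSC. Csf1r rose by 0.78 ± 0.16 on the log2 scale in ALI against Control (adjusted p = 0.00183). Its difference in MSC against ALI was -0.14 ± 0.15 (adjusted p = 0.629). It fell by 0.50 ± 0.15 in tpMSC against ALI (adjusted p = 0.038), but only 10 of 20 alternatives kept that call, and the adjusted p reached 0.154 without tpMSC replicate 2. The call was also lost without Control replicate 1, 2 or 3, without ALI replicate 1 or 3 and without tpMSC replicate 1, with no filter on low counts, on the log2(FPKM + 1) scale and with the replicate number as a block. Csf1r was higher than in Control in MSC by 0.64 ± 0.16 (adjusted p = 0.0151), a call lost without Control replicate 3 or MSC replicate 2, and by 0.29 ± 0.15 in tpMSC (adjusted p = 0.241), which was not called. The gene overlaps Hmgxb3 on the other strand, which had at most 2673 counts in a library, and the labels and notes used here do not state whether strand was used in counting.

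Markers of monocytes and interstitial macrophages, which are among the cells that carry CSF1R, rose with it in ALI, whereas most of those of alveolar macrophages fell, as given below. Of 15 such genes, 12 rose and 1 fell in ALI against Control, with a median log2 fold change of 2.14. In MSC against ALI 3 fell, and in tpMSC against ALI 11 fell, with none rising in either. Their summed FPKM was 299.0 to 332.9 in Control, 745.3 to 884.9 in ALI, 629.2 to 968.7 in MSC and 401.3 to 495.2 in tpMSC. C1qa, a subunit of complement C1q made by macrophages, had a mean of 20.5 FPKM in Control, 118.0 in ALI, 121.0 in MSC and 69.8 in tpMSC. C1qb and C1qc, the genes of the other 2 subunits, rose by 2.83 and 2.64 on the log2 scale in ALI against Control and fell by 0.89 and 0.74 in tpMSC against ALI. Their part in the change of Csf1r was not tested.

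Csf2ra, the alpha chain gene of the GM-CSF receptor (GRCm38 chr19:61223957-61228429, minus strand), was the only one of the 9 genes to fall in ALI. It was at 18.15, 8.51 and 6.83 FPKM in Control, and in ALI it was listed at 0 in replicate 1 and at 0.10 and 0.21 FPKM in replicates 2 and 3. In MSC it was at 7.02 and 15.57 FPKM in replicates 1 and 2 and listed at 0 in replicate 3, and in tpMSC it was at 11.14, 9.71 and 23.86 FPKM. The Control and tpMSC libraries, with 1463 to 5224 counts each, overlapped each other and stood apart from the ALI libraries, with 0, 19 and 42 counts. The MSC group was split, with 1394 and 3266 counts in replicates 1 and 2 and 0 in replicate 3. The fitted log2 fold change of ALI against Control was -6.64 ± 1.57 (adjusted p = 0.00538), and the call was lost under limma voom with library weights (adjusted p = 0.275). In tpMSC against ALI it was 7.10 ± 1.59 (adjusted p = 0.00771), again lost with library weights (adjusted p = 0.303). In MSC against ALI it was 6.08 ± 1.55 (adjusted p = 0.0298), but the groups overlapped, and only 10 of 20 alternatives kept the call. It was lost without ALI replicate 1, 2 or 3 or MSC replicate 1 or 2, with limma on log2 FPKM, with library weights, with a replicate block and with only the 2 groups fitted, and the highest adjusted p was 0.615. Neither treated group was called against Control (adjusted p = 0.785 for MSC and 0.83 for tpMSC). A listed 0 need not mean that no RNA was present. Csf2ra is 1 of 9 genes, among 11880 with a median count of at least 500, that are listed at 0 in some library. Septin2, a widely expressed cytoskeletal gene, is another, with 0 in MSC replicate 2 and 6083 counts in MSC replicate 3. Serpina3h, Gm20716 and Gm49450 also have zeros beside replicates with many counts. Acod1, Chl1, Gpr84 and Cstdc4 are instead at 0 in Control replicate 3, where the other Control libraries were also low (for Acod1, 15 and 8 counts). The ALI libraries of Csf2ra were likewise all low, whereas the 0 in MSC replicate 3 stands beside 1394 and 3266 counts.

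Most alveolar macrophage markers, but not all, were low in ALI. Most also split the MSC libraries in the order of Csf2ra, an order that Csf1r, Csf2rb and Csf2rb2 also had. The summed FPKM of the markers did not follow Csf2ra in the tpMSC libraries. Of 15 such genes, 10 fell and none rose in ALI against Control (median log2 fold change -1.93), 5 rose in MSC against ALI and 11 rose in tpMSC against ALI, with none falling. Their summed FPKM was 405.3 to 491.5 in Control and 90.2 to 110.6 in ALI, while the MSC libraries had 346.7, 872.2 and 77.1. The tpMSC libraries had 711.4, 652.9 and 492.1, so that replicate 3, the highest of them in Csf2ra, had the lowest sum. Single markers differed in this, and Itgax, at 16.62, 11.56 and 19.16 FPKM, was highest in replicate 3. Chil3 made up much of the sums, with 401.97, 342.84 and 241.91 FPKM in tpMSC against 142.98, 114.32 and 93.53 in Control. Against Control, none of the 15 markers was called in tpMSC, and 3 were called lower in MSC. Among the MSC libraries, replicate 3 had the lowest value of all 15 markers and replicate 2 the highest of 14. No marker was listed at 0 in an ALI library, and only Fabp1, a fatty acid binding protein gene, was listed at 0 in MSC replicate 3. Krt79, a keratin gene, was at 2.19 to 3.92 FPKM in Control and at 0.02 to 0.05 in ALI. In the MSC libraries it was at 2.21, 6.22 and 0.01 FPKM, the order also seen in Csf2ra, and in tpMSC at 5.05, 3.87 and 3.21, which is not the order of Csf2ra. Ear2, an eosinophil-associated ribonuclease gene, was at 34.00, 83.82 and 1.17 FPKM in MSC replicates 1 to 3, against 108.62 to 132.77 in Control and 2.86 to 5.23 in ALI. Car4 and Abcg1, a carbonic anhydrase and a lipid exporter, fell by 1.49 and 1.82 on the log2 scale in ALI against Control and rose by 1.47 and 1.59 in tpMSC against ALI. The part of alveolar macrophage number in the Csf2ra values was not tested.

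**Figure D2:**
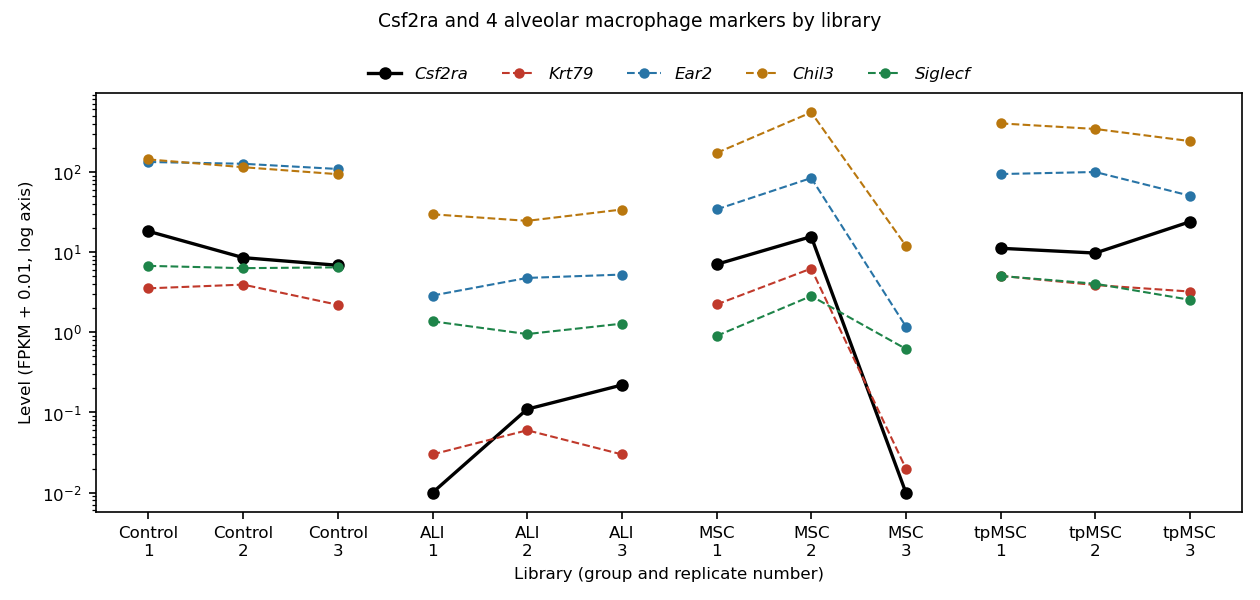
FPKM + 0.01 (vertical axis, log scale) of Csf2ra and of Krt79, Ear2, Chil3 and Siglecf, 4 of the 15 alveolar macrophage markers, in each library (horizontal axis). Lines join the libraries of a group only to guide the eye. All 5 genes are low in ALI and lowest within the MSC group in replicate 3, where Csf2ra is listed at 0. The 4 markers were chosen after their values were seen, and not all of the 15 markers are low in ALI.

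Csf2rb, the common beta chain gene shared by the receptors of GM-CSF, interleukin 3 and interleukin 5 (GRCm38 chr15:78325752-78353847, plus strand), moved in the opposite direction to its alpha chain partner in ALI. It was at 7.65, 7.57 and 6.28 FPKM in Control and at 25.33, 23.83 and 30.29 FPKM in ALI. The MSC libraries spread over 18.32, 34.27 and 9.24 FPKM, and the tpMSC libraries had 17.69, 13.82 and 21.90 FPKM. Control was lowest without overlap, tpMSC lay below ALI without overlap, and MSC overlapped both ALI and tpMSC. Csf2rb rose by 1.95 ± 0.36 on the log2 scale in ALI against Control (adjusted p = 0.00113). Its difference from ALI was -0.41 ± 0.35 in MSC (adjusted p = 0.522) and -0.60 ± 0.35 in tpMSC (adjusted p = 0.247). Without MSC replicate 2 the MSC difference was -1.0 and was called (adjusted p = 0.0303). The tpMSC difference was called with library weights (adjusted p = 0.0251) and with only the 2 groups fitted (adjusted p = 0.04). Against Control it was higher by 1.53 ± 0.35 in MSC (adjusted p = 0.0117) and by 1.35 ± 0.35 in tpMSC (adjusted p = 0.0245). The tpMSC call was lost without Control replicate 1, 2 or 3 or tpMSC replicate 1 or 3, with an adjusted p of up to 0.0815.

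Csf2rb2 encodes a second mouse beta chain that serves the interleukin 3 receptor (GRCm38 chr15:78282507-78305721, minus strand). It was at 4.54, 4.40 and 4.13 FPKM in Control and at 9.71, 9.58 and 12.26 FPKM in ALI. The MSC libraries had 9.34, 21.41 and 4.46 FPKM and the tpMSC libraries 9.72, 6.83 and 12.10 FPKM. Control was below ALI and tpMSC without overlap, and MSC replicate 3 was within the Control range. Csf2rb2 rose by 1.33 ± 0.42 on the log2 scale in ALI against Control (adjusted p = 0.0245), a call lost without Control replicate 1, 2 or 3 or ALI replicate 3 (adjusted p of up to 0.0747). Its difference from ALI was 0.11 ± 0.41 in MSC (adjusted p = 0.912), where the sign turned in 4 alternatives, among them without MSC replicate 2 (-0.67), and -0.16 ± 0.41 in tpMSC (adjusted p = 0.82). Against Control it was higher by 1.44 ± 0.42 in MSC (adjusted p = 0.0338), a call lost in 9 of 20 alternatives. Without MSC replicate 2 that difference was 0.66 (adjusted p = 0.148), and the call was also lost without Control replicate 1, 2 or 3. In tpMSC it was higher by 1.17 ± 0.42 (adjusted p = 0.0791), which was not called. It was called without MSC replicate 2 or 3 (adjusted p = 0.00981 and 0.0167), under limma voom with library weights (adjusted p = 0.0285) and with only the 2 groups fitted (adjusted p = 0.00524).

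The beta chain genes are neighbours on chromosome 15 and nearly alike in sequence, which bears on how reads can be divided between them. Over 2628 aligned coding bases in GENCODE M21 transcripts, 2503 were identical (95.2%). Of all 150-base windows of the Csf2rb coding sequence, 6.50% occurred unchanged in Csf2rb2, so a read of that length from those windows could belong to either gene, and the treatment of such reads in counting is not stated in the labels or notes used here. The first 150 aligned coding bases, from the start codon, are printed because they show how sparse the differences are, with the 6 differing bases in capitals.
Csf2rb: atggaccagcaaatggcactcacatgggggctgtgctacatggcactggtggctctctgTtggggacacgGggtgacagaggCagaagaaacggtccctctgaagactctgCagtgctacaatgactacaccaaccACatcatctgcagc
Csf2rb2: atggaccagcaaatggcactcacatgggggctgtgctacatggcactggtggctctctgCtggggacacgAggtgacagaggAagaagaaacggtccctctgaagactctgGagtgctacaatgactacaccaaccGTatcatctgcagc
As a share of the summed FPKM of both genes, Csf2rb2 made up 37.9% ± 1.56 (SD, n = 3) in Control, 28.4% ± 0.6 in ALI, 34.9% ± 3.11 in MSC and 34.7% ± 1.42 in tpMSC. The groups differed in an exact permutation test over 369600 arrangements (n = 3 per group, p = 0.00429). All 3 ALI libraries, at 27.7% to 28.8%, lay below every other library, the nearest of which was MSC replicate 3 at 32.6%.

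**Figure D3:**
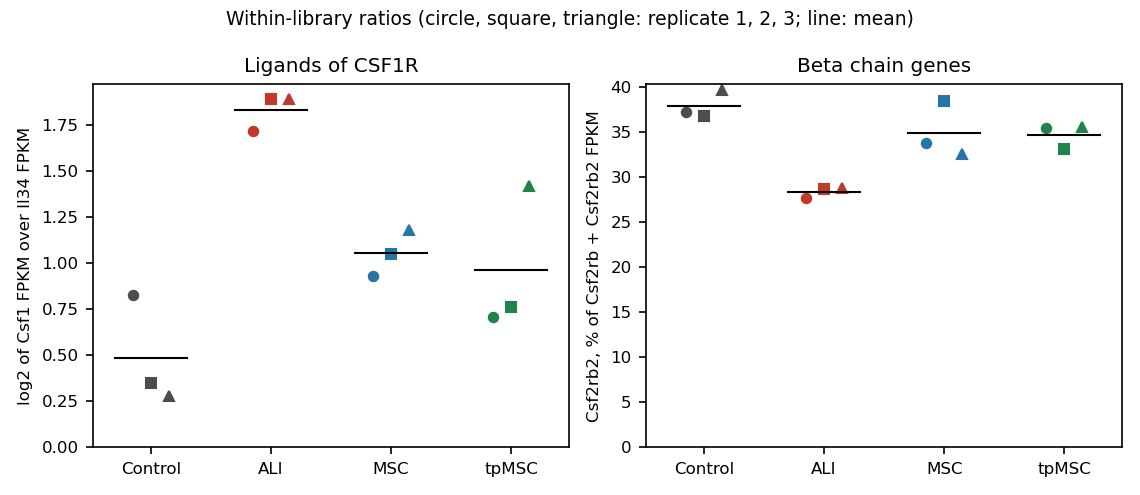
Left, log2 ratio of Csf1 to Il34 FPKM per library; right, Csf2rb2 as a percentage of the summed Csf2rb and Csf2rb2 FPKM, both by group, with the symbol giving the replicate and the line the mean. The ALI libraries have the highest ligand ratios, 1.72 to 1.89, and the lowest Csf2rb2 shares, 27.7% to 28.8%.

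Set side by side, the fitted changes of ligand and receptor genes overlapped in size. In ALI against Control the ligand genes rose by 0.69 (Il34) to 9.31 (Csf3) on the log2 scale and the receptor genes other than Csf2ra by 0.78 (Csf1r) to 3.09 (Csf3r). Among the treated groups, 4 genes in MSC and 8 in tpMSC had FPKM values that did not overlap those of ALI, as did 26.9% and 39.5% of all genes. Against Control, 8 of the 9 genes were called higher in MSC and 6 in tpMSC, and none was called lower. Of all genes, 18.7% were called in MSC against Control, 10.7% as higher and 8.0% as lower. In tpMSC against Control 15.9% were called, 9.1% as higher and 6.79% as lower. In both of these comparisons 7 of the 9 genes had groups that did not overlap, against 37.9% of all genes for MSC and 38.7% for tpMSC.

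**Figure D4:**
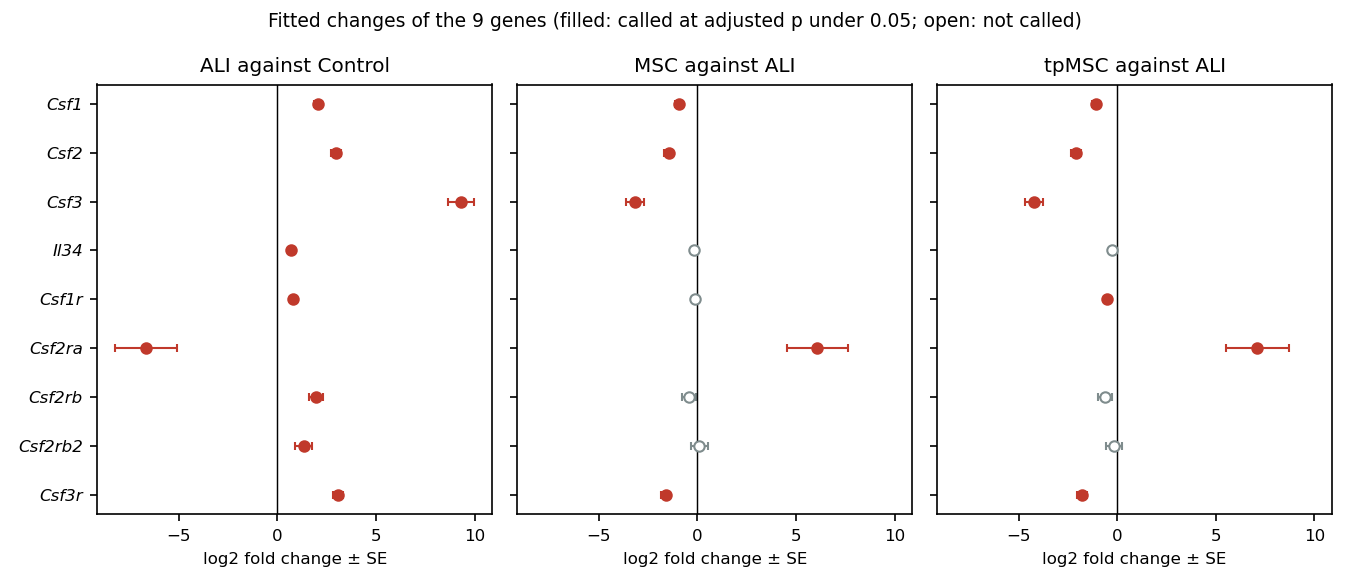
Fitted log2 fold changes (horizontal axes), with standard errors back-calculated from the test statistic, for the 9 genes in 3 comparisons that share the ALI libraries. Filled points were called at an adjusted p under 0.05; Csf2ra runs opposite to the ligand genes and Csf3r in all 3 panels.

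Between tpMSC and MSC, no member was called, by edgeR or by DESeq2, and no pair of groups was free of overlap (13.3% of all genes were). At an unadjusted p under 0.05, 3 members and 12.6% of all genes differed. These were Csf2 (log2 fold change -0.64 ± 0.24, adjusted p = 0.298), Csf3 (-1.08 ± 0.44, adjusted p = 0.332) and Csf1r (-0.35 ± 0.15, adjusted p = 0.374), each with a lower mean in tpMSC. The other ligand genes differed by -0.13 ± 0.19 (Csf1) and -0.08 ± 0.10 (Il34), and Csf3r by -0.17 ± 0.24. Csf2ra differed by 1.02 ± 1.12, the widest error, since MSC replicate 3 was listed at 0. These values do not show that the treatments acted alike. Of all genes, 7 were called between tpMSC and MSC by edgeR, 4 higher and 3 lower, and 670 by DESeq2, 221 higher and 449 lower. With DESeq2 size factors in edgeR 4 were called, 1 higher and 3 lower. Leaving out tpMSC replicate 3 gave 386 calls, 106 higher and 280 lower, and leaving out MSC replicate 1 gave 104, 26 higher and 78 lower. Leaving out MSC replicate 2 gave 52 and leaving out MSC replicate 3 gave 18, while leaving out any other library gave 0 to 8.

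Kinases, STATs and adaptors that carry the signal from these receptors rose more often than they fell in ALI. Of 20 such genes, 16 rose and 3 fell in ALI against Control (median log2 fold change 0.56), 1 rose and 7 fell in MSC against ALI (median -0.33), and 2 rose and 12 fell in tpMSC against ALI (median -0.42). The medians over all genes tested were -0.022, 0.018 and 0.01. Of all genes, 20.2% were called higher and 19.6% lower in ALI against Control. These shares were 5.03% and 5.21% in MSC against ALI, and 11.6% and 11.5% in tpMSC against ALI. They also apply to the lists of signal brakes, transcription factors and neighbouring growth factors below, some of whose counts lie near them. Fgr, a Src family kinase of myeloid cells, went from a mean of 5.70 FPKM in Control to 28.9 in ALI, with 11.4 in MSC and 9.55 in tpMSC. Tyrobp, the adaptor DAP12, went from 58.4 to 160.0 FPKM, with 87.8 in MSC and 83.0 in tpMSC. Both were called in each of these comparisons. Several of these genes are expressed chiefly in myeloid cells, whose markers rose as given above, and the part of cell number was not tested.

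Among 12 genes that restrain the signal, 6 rose and 1 fell in ALI against Control (median log2 fold change 0.40), 4 fell in MSC against ALI (median -0.14), and 1 rose and 5 fell in tpMSC against ALI (median -0.15). Socs3, which blocks signalling of the G-CSF receptor, rose from a mean of 10.9 FPKM in Control to 119.0 in ALI, by 3.51 ± 0.20 on the log2 scale (adjusted p = 6.55e-07). It fell by 1.14 ± 0.18 in MSC (56.0 FPKM, adjusted p = 0.00303) and fell by 1.28 ± 0.18 in tpMSC (49.8 FPKM, adjusted p = 0.00058), both against ALI. Ptpn6, the phosphatase SHP-1, had a mean of 23.0 FPKM in Control, 55.6 in ALI, 34.2 in MSC and 28.1 in tpMSC. Cbl, a ubiquitin ligase that targets CSF1R for degradation, had 7.24, 11.7, 9.52 and 7.37 FPKM in the same order, and its fall was called in tpMSC (adjusted p = 0.00099) but not in MSC (adjusted p = 0.0633).

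Of 18 transcription factors of myeloid cells, 9 rose and 3 fell in ALI against Control (median log2 fold change 0.61), 2 rose and 7 fell in MSC against ALI (median -0.23), and 3 rose and 9 fell in tpMSC against ALI (median -0.54). Cebpb, which acts in emergency granulopoiesis, had a mean of 55.2 FPKM in Control, 187.0 in ALI, 98.4 in MSC and 90.2 in tpMSC. Cebpd, a related factor of the acute phase response, had 16.7, 78.9, 41.4 and 29.8 FPKM.

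Of 14 neighbouring growth factor ligands and receptors, 13 could be tested, and they showed no common direction in ALI against Control, with 3 rising and 4 falling (median log2 fold change -0.02). None was called in MSC against ALI, and 1 rose and 3 fell in tpMSC against ALI. Kit, the receptor of stem cell factor, fell from a mean of 26.8 FPKM in Control to 9.61 in ALI (log2 fold change -1.42 ± 0.19, adjusted p = 0.000115) and rose to 15.6 in tpMSC (0.68 ± 0.18 against ALI, adjusted p = 0.0205). Its ligand gene Kitl fell from 56.6 to 33.5 FPKM in ALI, and the erythropoietin receptor gene Epor from 3.20 to 0.983 FPKM. No gene of these lists was called between tpMSC and MSC.

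**Figure D5:**
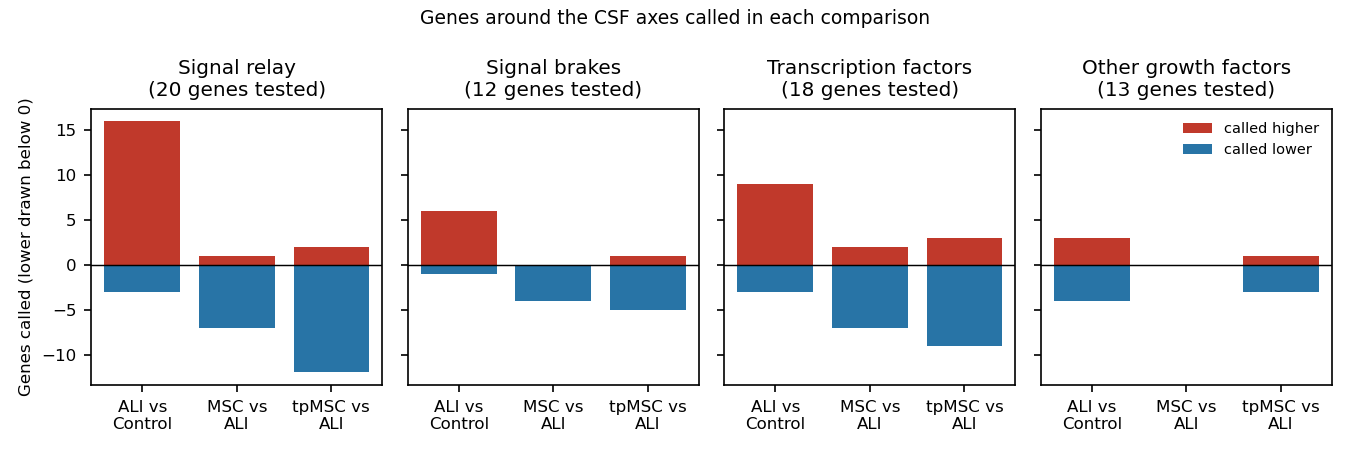
Number of genes called higher (drawn above 0) and lower (drawn below 0) in each of 3 comparisons, for the signal relay, the signal brakes, the transcription factors and the neighbouring growth factors. In the relay list 16 of 20 genes are called higher in ALI against Control and 12 are called lower in tpMSC against ALI.

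Marker lists of other lung cells differed in how many genes were called in ALI against Control, where 20.2% of all genes were called higher and 19.6% lower. Of 11 alveolar type 2 markers, 4 rose and 5 fell. Sftpc fell from a mean of 11200 FPKM in Control to 4450 in ALI, and Lpcat1 from 76.8 to 46.9 FPKM. Sftpd, a surfactant collectin gene, rose from a mean of 306.0 FPKM in Control to 844.0 in ALI. Of 12 endothelial markers, 11 fell, among them Thbd (thrombomodulin), with means of 138.0 and 49.8 FPKM. Of 11 fibroblast and mesothelial markers, 2 rose and 5 fell, among them Tcf21, a fibroblast transcription factor gene, with means of 49.6 and 15.9 FPKM. Of 10 dendritic cell markers, 1 rose and 4 fell, among them Clec9a, with means of 15.5 and 5.25 FPKM. Of 11 tested markers of basophils, mast cells and type 2 innate lymphoid cells, 4 fell, as did 4 of 12 lymphocyte markers, and none of either list rose. Of 8 tested cardiac and fat markers, none was called.

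The genes whose levels over the 12 libraries were most like those of each member were listed as a description, with Pearson's r of log2 CPM (counts scaled to library size) across 12706 genes. The 12 points share 4 groups, so a gene with a large step in ALI correlates with others that have one. Closest to Csf3r was Cxcr2, the neutrophil chemokine receptor (r = 0.996), and closest to Csf3 was Lrg1 (0.992), followed by Itga7 (0.991). Csf1 was closest to Osmr, the oncostatin M receptor gene (0.991), and Csf2 to Tnfrsf11a, the RANK gene (0.991). Il34 was closest to Il6 (0.974), Csf1r to Eif3l (0.968), Csf2rb to Slc16a10 (0.976) and Csf2rb2 to Bcl2a1b (0.963). Csf2ra was closest to Hoxb2 (0.967), followed by the alveolar macrophage marker Krt79 (0.959).

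Promoter sequence was examined over the 250 bases before the RefSeq transcription start (GRCm38.p6), in 5′ to 3′ order on the gene's strand. The windows of Csf1, which rose in ALI, and Csf2ra, which fell, are printed as examples. Matches of the motifs searched on both strands are in capitals. The motifs were the NF-kappaB motif, AP-1 (TGANTCA), STAT (TTCNNNGAA), PU.1 (GAGGAA) and C/EBP (TTNNGNAA).
Csf1, chr3:107760470-107760719, minus strand: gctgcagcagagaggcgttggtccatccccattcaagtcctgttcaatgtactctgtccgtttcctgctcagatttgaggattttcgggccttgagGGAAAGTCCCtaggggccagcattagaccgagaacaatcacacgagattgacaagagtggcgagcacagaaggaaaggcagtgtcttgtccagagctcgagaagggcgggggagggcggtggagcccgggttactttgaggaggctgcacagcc
Csf2ra, chr19:61228419-61228668, minus strand: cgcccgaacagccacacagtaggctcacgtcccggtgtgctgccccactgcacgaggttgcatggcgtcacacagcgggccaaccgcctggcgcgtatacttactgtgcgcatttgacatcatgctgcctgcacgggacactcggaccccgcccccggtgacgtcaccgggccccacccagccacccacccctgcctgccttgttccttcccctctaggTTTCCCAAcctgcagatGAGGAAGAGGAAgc
The Csf1 window holds an NF-kappaB match at position -154 from the start and none of the other motifs. The Csf2ra window holds PU.1 matches at -14 and -8 and a C/EBP match at -31. The Csf3r window holds an NF-kappaB match at -129 and a PU.1 match at -86 from its RefSeq start. Csf2 and Csf2rb2 also rose in ALI, and their windows hold no NF-kappaB match: that of Csf2 holds a C/EBP match at -145, and that of Csf2rb2 a STAT match at -15 and a PU.1 match at -167. The RefSeq start of Csf2 lies 232 bases upstream of its GENCODE M21 gene start, and those 232 bases were not searched. That of Csf3r lies 109 bases downstream of its GENCODE M21 start, so its PU.1 match falls within the GENCODE gene. Of all 32851 RefSeq windows of the same length, 7.25% hold the NF-kappaB motif, 6.75% AP-1, 7.02% STAT, 23.3% PU.1 and 36.8% C/EBP. A match describes the letters of a window and does not show that a factor binds there. The table of promoters had no entry for Csf3, Il34 and Csf2rb, and Csf1r was not looked up.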

How the data were processed

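Lung mRNA was sequenced as read pairs from dUTP-marked libraries, per the labels' protocols. Per the submitters' processing notes, reads were handled against GRCm38 with tools that include StringTie 1.3.4d, HISAT2 2.0.4 and cutadapt 1.9; their roles are not described. The authors deposited 1 table with raw read counts and FPKM values per gene and library, per the file headers. Which tool counted the reads, and whether by strand, is not given in the sources used here.

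Groups came from the sample titles. Counts were filtered with filterByExpr, TMM-scaled and fitted in edgeR 4.0.16 under R 4.3.3 to all 12 libraries at once, 1 mean for each group, with the quasi-likelihood test and Benjamini-Hochberg adjustment over 22915 genes in each of 6 comparisons. The SE given with a fitted log2 fold change is its absolute value divided by the square root of the F statistic of that test. Deposited FPKM values give the levels. The edgeR, DESeq2 and weighted voom fits were tried on simulated counts for ALI against Control only. The other steps were not tried on simulated data. Alternatives were DESeq2 1.42.0, its size factors in edgeR, no filter, limma 3.58.1 on log2(FPKM + 0.1) and log2(FPKM + 1), voom with library weights, a replicate block, fits of only the 2 groups compared, and leaving out each library.

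The 9 genes, 14 gene lists and the naming rule were chosen with earlier results of these data known. The rule named all 9 genes, up to 3 called genes per list with the smallest p in ALI against Control, up to 2 per list in tpMSC against MSC, and the 3 genes most like each member. Some genes that the rule names are not reported here. The other marker genes shown beside Csf2ra (Krt79, Ear2, Chil3 and Siglecf) were chosen after their values were seen, as were Itgax, Fabp4, Slc39a2, Septin2 and Acod1.

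Deposited positions equal those of GRCm38 for 670 of 35571 matched IDs and for 0 of the 9 genes, so GENCODE M21 positions on GRCm38 are printed instead, found by Ensembl ID. Promoter windows come from RefSeq (GRCm38.p6), which held 5 of the 8 genes looked up there. Csf1r was left out of the look-up. Coding sequences come from GENCODE M21.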

Additional observations from a re-analysis of the deposited data

How the results depend on the processing

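Of 1080 refitted values of the 9 genes, 1014 kept their direction and side of the threshold, 48 lost their call, 8 gained one and 10 changed sign. The Csf2rb2 difference of MSC from ALI changed sign on log2(FPKM + 0.1) (-0.11), on log2(FPKM + 1) (-0.08), with library weights (-0.20) and without MSC replicate 2 (-0.67, within -0.67 to 0.50 over fits that left out 1 library). The others changed sign only when 1 library was left out, and the ranges over such fits follow: Csf2rb2 in tpMSC against ALI, -0.37 to 0.03 (without tpMSC replicate 2), and, in tpMSC against MSC, Csf1, -0.43 to 0.04 (without tpMSC replicate 1), Csf2rb, -0.54 to 0.40, and Csf2rb2, -0.66 to 0.50 (both without MSC replicate 2). Against Control, Csf2ra ran from -1.68 to 0.03 in MSC (without MSC replicate 3) and from -0.07 (without tpMSC replicate 3) to 0.99 in tpMSC. The genes called in MSC against ALI went from 2347 to 3604 with DESeq2, 3756 with library weights and 1221 with only the 2 groups. Those in tpMSC against ALI went from 5299 to 8444, and those in tpMSC against Control from 3643 to 5952, with library weights. In tpMSC against MSC, 7 became 670 with DESeq2, 4 with its size factors in edgeR, 13 on log2(FPKM + 0.1), and 0 with no filter or only the 2 groups. Leaving out 1 library gave 1084 to 2930 genes in MSC against ALI, 3399 to 5800 in tpMSC against ALI, 0 to 386 in tpMSC against MSC, 2465 to 4751 in MSC against Control and 1830 to 4247 in tpMSC against Control. Of the 9 genes, 3 to 5 were then called in MSC against ALI (3 without MSC replicate 1) and 3 to 7 in tpMSC against Control (3 without Control replicate 1). The causes were not tested. Replicate numbers showed no pairing: over 18 same-numbered pairs the correlation of deviations ran from -0.108 to 0.104. With a replicate block, 0 genes were called in tpMSC against MSC, and the calls of Csf1r in tpMSC against ALI (adjusted p = 0.0604), Csf2ra in MSC against ALI (0.0659) and Csf2rb2 in MSC against Control (0.0661) were lost. Csf3 in Control and Csf2ra in ALI and in MSC replicate 3 rest on few or no counts. Total counts were 65202525 in ALI replicate 1 and 70209229, the highest of the 12 libraries, in MSC replicate 3. Depth was not tested as the source of the listed zeros.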
